A study of Mus musculus with 9 samples.

Results

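The genes that carry iron into cells, hold it there or let it out were followed as a set of 10 in pancreatic islets of female mice with and without the beta cell O-GlcNAc transferase gene Ogt. The members are Hfe, Tfrc, Trf, Slc11a2, Fth1, Ftl1, Slc40a1, Cp, Ireb2 and Aco1, taken by gene symbol out of 24393 counted genes with a usable symbol. The set was proposed with the KO against WT result of this same study in view, so the KO against WT values of these 10 genes are given below as a description, without p-values. Saying that a member passed the threshold or fell gives only its place in the table of all genes and is no test of the set. The interaction of genotype with sequencing run, the difference between both control genotypes and the run difference were not used to choose the members, and tests are given for them. A wider list of iron and heme genes, drawn up by known role, is given with p-values adjusted over all genes, but it too was drawn up with earlier results of the KO against WT comparison known.

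The KO group held 4 islet RNA libraries with the genotype Rip-cre; Ogt f/f, in which a Cre recombinase driven by the rat insulin promoter deletes the floxed Ogt gene in beta cells. The WT group held 5 islet libraries without the Cre, of which WT1 and WT3 were Ogt f/+ and WT2, WT4 and WT5 were Ogt f/f, so every library carried at least 1 floxed allele. Because no control carried the Cre alone, an effect of the Cre transgene cannot be told apart from the loss of Ogt, and the islets also hold alpha, delta and other cells that the promoter does not target. Libraries KO1, KO2, WT1, WT2 and WT3 were sequenced in run 1 and KO3, KO4, WT4 and WT5 in run 3, which a further label calls the 2nd Run. Islets had been picked by hand and kept in culture overnight before freezing, and the labels give no age for the mice. The labels do not say that each library came from a separate mouse, so the spread that the p-values rest on is that among libraries and could be technical in origin. In bulk islets, fewer cells of a type and less RNA per cell cannot be told apart.

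Total counts were 5150443 to 5861252 in KO and 5753265 to 6073537 in WT libraries of run 3, and 4177946 to 4397115 in KO and 3796043 to 4462754 in WT libraries of run 1. Ogt itself averaged 29.5 ± 7.34 CPM (counts scaled to library size with TMM factors) in KO islets (SD, n = 4) and 71.1 ± 11.9 CPM in WT islets (SD, n = 5), with -1.30 ± 0.14 (SE) as its log2 fold change. Rn45s, the precursor of ribosomal RNA, made up 11.9% to 19.4% of KO and 9.62% to 28.5% of WT counts, highest in WT2 and WT5. Markers of islet endocrine cells were abundant in every library. The 10 beta cell markers summed to 55840 to 83070 CPM in KO against 64010 to 110200 CPM in WT libraries of run 1. In run 3 they summed to 42850 to 46670 CPM in KO against 47900 to 54500 CPM in WT libraries. Ins2 alone was at 28186 CPM in KO3, its lowest library, and at 79743 CPM in WT3, its highest. Of the 10 markers, 5 fell, as did 8.96% of all tested genes. The 6 delta and PP cell markers summed to 5306 to 5510 CPM in KO against 3028 to 4028 CPM in WT libraries of run 1, and to 3907 to 4803 CPM in KO against 2986 to 3053 CPM in WT libraries of run 3. Of these 6, 2 rose, as did 9.56% of all tested genes, and the part of cell composition in the results below was not tested. Summed acinar markers, from the digestive tissue around islets, ran from 364 to 1904 CPM in KO against 2203 to 5433 CPM in WT libraries of run 1, and from 75.1 to 192 CPM in KO against 107 to 120 CPM in WT libraries of run 3. All 3 globin beta and both globin alpha genes of the red cell list were at 0 in all libraries, and no marker of that list passed the filter on low counts.

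Cells take up iron mainly as transferrin, the plasma carrier encoded by Trf, which binds the transferrin receptor encoded by Tfrc. Hfe, a relative of the MHC class I heavy chains that pairs with beta-2-microglobulin, binds the same receptor, and its loss causes hereditary haemochromatosis in humans. Slc11a2 (DMT1) then moves the iron out of the endosome into the cytosol, where the ferritin heavy and light chains Fth1 and Ftl1 store it. Slc40a1 (ferroportin) is the known exporter of iron from animal cells, and Cp (ceruloplasmin) is the copper enzyme that oxidises the iron as it leaves. The iron regulatory proteins IRP1 and IRP2, encoded by Aco1 and Ireb2, bind hairpins called iron-responsive elements when iron is scarce: at the 3′ end of Tfrc RNA they slow its decay, and at the 5′ end of ferritin and ferroportin RNA they block translation. RNA counts can therefore register the effect on Tfrc RNA, but not the control of ferritin and ferroportin translation. Beta cells are known to be sensitive to iron, and diabetes is a common feature of haemochromatosis.

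The hairpins that link the members were found in the annotated untranslated regions of 4 of the 10 genes, and they are shown because iron regulatory proteins are known to bind these RNAs there. The search asked for a bulged C, an upper stem of 5 base pairs, a loop of 6 bases reading CAGTGN with a last base other than G, and at least 3 pairs among the 5 positions of the lower stem, in 27 bases on the transcribed strand. Sequences are the sense strand of GENCODE transcripts, build GRCm38, 5′ to 3′, and capitals mark the bulged C and the loop. Tfrc held 4 such elements in its 3′ untranslated region, and the 3 other genes held 1 each in the 5′ untranslated region:

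Fth1, 5′ UTR, chr19:9982733-9982759, + strand: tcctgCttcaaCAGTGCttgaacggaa

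Ftl1, 5′ UTR, chr7:45459780-45459806, - strand: tcttgCttcaaCAGTGTttgaacggaa

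Slc40a1, 5′ UTR, chr1:45925466-45925492, - strand: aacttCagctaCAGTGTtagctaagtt

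Tfrc, 3′ UTR, chr16:32631220-32631246, + strand: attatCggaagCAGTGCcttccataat

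Tfrc, 3′ UTR, chr16:32631599-32631625, + strand: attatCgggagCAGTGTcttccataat

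Tfrc, 3′ UTR, chr16:32631664-32631690, + strand: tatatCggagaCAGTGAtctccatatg

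Tfrc, 3′ UTR, chr16:32631711-32631737, + strand: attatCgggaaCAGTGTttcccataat

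The elements of Fth1 and Ftl1 differed at 2 of 27 bases, while the element of Slc40a1 differed from either at 14. The 4 elements of Tfrc spanned 518 bases and differed from each other at 2 to 10 bases. Over all genes with an annotated 5′ untranslated region of at least 27 bases, 8 of 20200 held the pattern (0.0396%), of which 3 are members. The 8 also include the Ftl1 copy Ftl1-ps1. For the 3′ untranslated region, with the same lower limit, it was 24 of 20857 genes (0.115%), of which 1 is a member. The members with a match were already known carriers of the element, so these shares are background and no test. The other 6 members, Slc11a2 among them, held no match, which says only that this pattern is not in their annotated untranslated regions. Elements that depart from the pattern would have been missed.

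**Figure D1:**
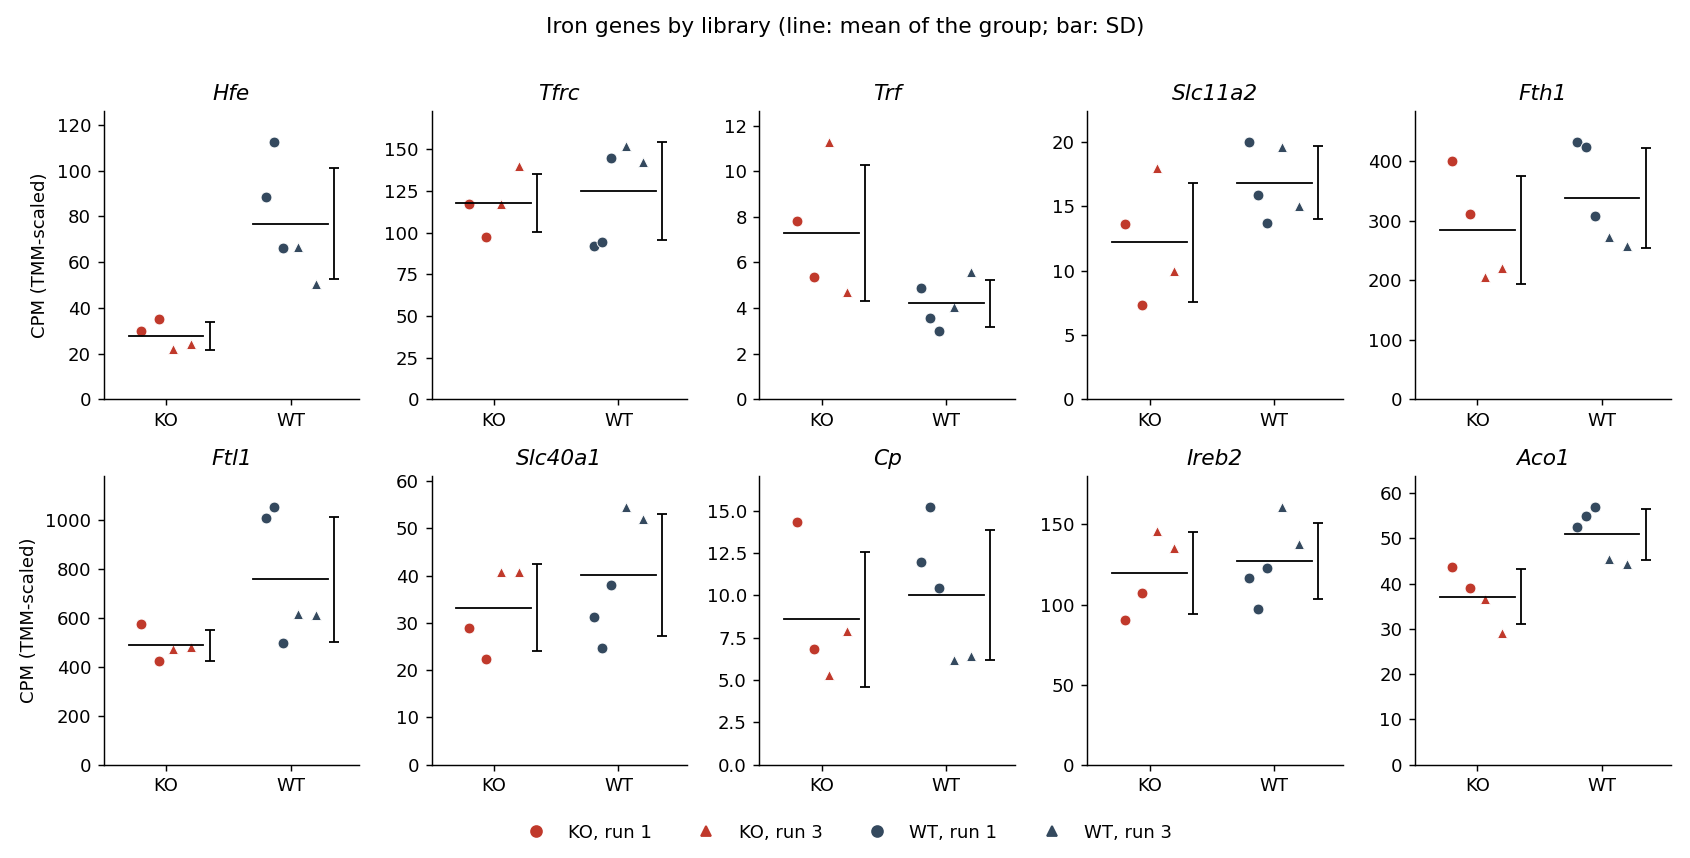
CPM of each of the 10 iron genes in every library, KO left of WT, with run 1 and run 3 marked the short lines at group means and the error bars 1 SD. Hfe and Aco1 are the genes whose KO libraries all lie below all WT libraries.

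Among the uptake genes, Hfe RNA was the one that differed most. It stood at 30.0, 35.3, 21.9 and 24.1 CPM in KO1 to KO4, against 88.4, 113, 66.4, 66.6 and 50.3 CPM in WT1 to WT5. The highest KO library thus lay below the lowest WT library, and KO2 and WT2, both of run 1, were the highest of their groups. The mean was 27.8 ± 6.04 CPM in KO islets (SD, n = 4) and 76.9 ± 24.2 CPM in WT islets (SD, n = 5), and the fitted KO level was 38.0% of the WT level. The log2 fold change with run as a term was -1.40 ± 0.15 (SE; 95% interval -1.71 to -1.09), against -1.44 when estimated in run 1 and -1.34 in run 3. Hfe lies on chromosome 13 (23702034 to 23710854, - strand, GRCm38), with no other annotated gene overlapping it.

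Tfrc, the receptor that Hfe binds, did not pass the threshold. It had 117, 97.1, 117 and 140 CPM in KO1 to KO4, against 92.1, 94.2, 145, 152 and 143 CPM in WT1 to WT5. The groups overlapped, and the spread within WT libraries followed the run except for WT3, which belongs to run 1 and stood beside the run 3 libraries. With run in the fit, Tfrc had a log2 fold change of -0.12 ± 0.12 (95% interval -0.38 to 0.14). Tfrc lies on chromosome 16 (32608920 to 32632794, + strand).

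Trf RNA was low and was the one member with a log2 fold change above 0. The KO libraries had 7.81, 5.36, 11.3 and 4.70 CPM and the WT libraries 4.88, 3.56, 2.98, 4.07 and 5.58 CPM. Most KO libraries lay above most WT libraries, with overlap in KO2, KO4, WT1 and WT5. The log2 fold change was 0.75 ± 0.31 (95% interval 0.09 to 1.41) and missed the threshold. Without KO4 it was 0.97 and passed, so 1 library decides the call. Trf is also made by Schwann cells and the liver. The 7 Schwann and glial markers summed to 103 to 121 CPM in KO and 82.1 to 118 CPM in WT libraries with 1 of them called. The 8 hepatocyte markers, which include the alpha cell gene Ttr, summed to 565 to 1040 CPM in KO against 596 to 717 CPM in WT libraries of run 1 and to 412 to 503 CPM in KO against 588 to 617 CPM in WT libraries of run 3. Ttr alone made up most of these sums, with 1026 of 1040 CPM in KO1 and 595 of 617 CPM in WT4. The sums therefore follow Ttr and say little about hepatocytes. Of the 8 hepatocyte markers, 4 passed the filter and 0 were called, and Alb was at 0.24 to 3.32 CPM in KO and 0 to 0.60 CPM in WT libraries. The part of these cells in the Trf value was not tested. A predicted gene, Gm20425, overlaps Trf on the same strand (chromosome 9, 103204001 to 103230444), and reads of both may have been split or shared.

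Slc11a2 had 13.6, 7.30, 17.9 and 9.98 CPM in KO1 to KO4, against 20.0, 15.9, 13.7, 19.6 and 15.0 CPM in WT1 to WT5. KO2 and KO4 were the lowest libraries of all, and KO3 lay among the WT libraries. The log2 fold change was -0.49 ± 0.22 (95% interval -0.96 to -0.01), short of the threshold over all genes. The gene lies on chromosome 15 (100387898 to 100425072, - strand) and overlaps Gm5475 on the opposite strand. The sources used here do not state whether counting used strand.

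**Figure D2:**
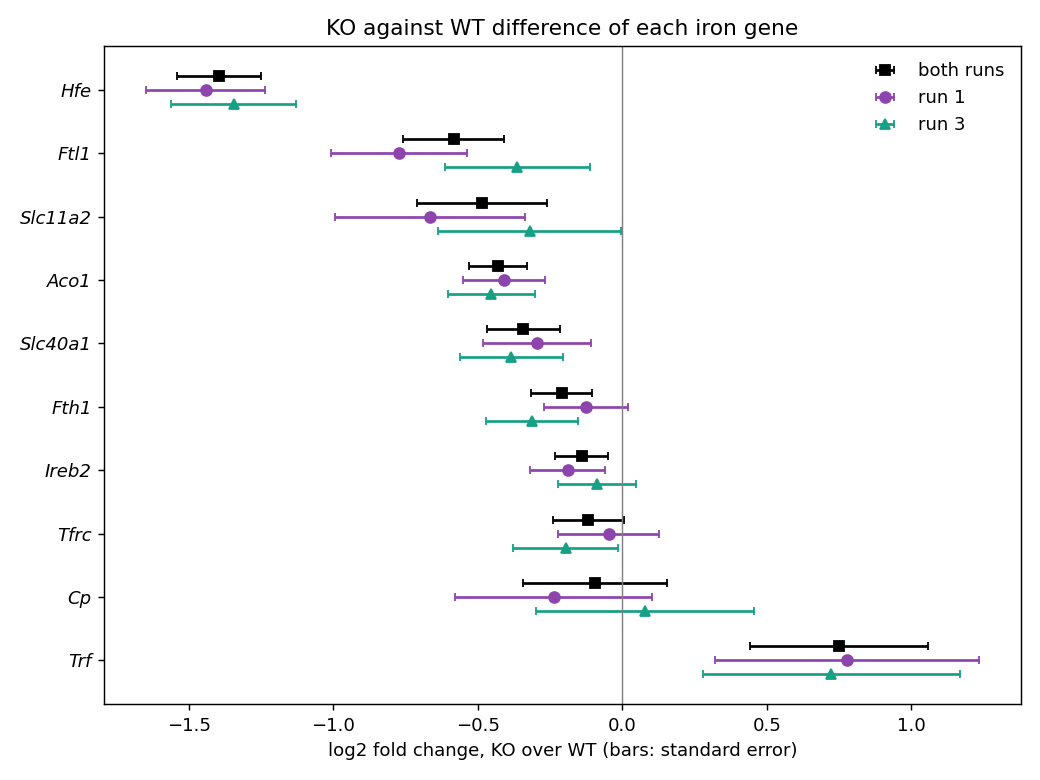
Log2 fold change of KO over WT for each iron gene from the fit with run as a term (squares) and within run 1 (circles) and run 3 (triangles), with bars of 1 SE. Hfe is at -1.40, and the squares of 9 of the 10 genes lie below 0.

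The storage genes were the most abundant members. Ftl1, the ferritin light chain, had 575, 422, 474 and 480 CPM in KO1 to KO4, against 1008, 1053, 496, 617 and 611 CPM in WT1 to WT5. All KO libraries lay below 4 of the 5 WT libraries, and WT3 stood among the KO libraries. WT1 and WT2 of run 1 were far above the other WT libraries. Ftl1 fell in KO islets by 0.58 ± 0.17 on the log2 scale (95% interval -0.95 to -0.21), with -0.77 in run 1 and -0.36 in run 3. The call was lost in 14 of 23 alternatives with the sign kept. These include the fits without KO1 (-0.63), KO2 (-0.45), KO3 (-0.62), WT1 (-0.50), WT2 (-0.48) or WT4 (-0.62), and the fit with the acinar marker level as a term (-0.50).

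Fth1, the ferritin heavy chain that carries the ferroxidase activity, had 401, 311, 205 and 221 CPM in KO1 to KO4 and 433, 424, 307, 272 and 257 CPM in WT1 to WT5. Within run 3 both KO libraries lay below both WT libraries, and within run 1 both lay below WT1 and WT2 but above WT3. Its log2 fold change was -0.21 ± 0.11 (95% interval -0.44 to 0.02) and missed the threshold. It passed without WT3, at -0.29. Both ferritin genes have near-identical copies elsewhere in the genome, and their counts are uncertain because the sources used here do not state how reads with several matches were counted. Fth1 lies on chromosome 19 (9980598 to 9985098, + strand), and Ftl1 lies on chromosome 7 (45457944 to 45459884, - strand) with Gm22133 on its own strand and Gm10252 on the other.

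Neither exporter gene passed the threshold. Slc40a1 had 29.0, 22.4, 40.9 and 40.8 CPM in KO1 to KO4, against 31.3, 24.6, 38.0, 54.5 and 52.0 CPM in WT1 to WT5. Within run 3 both KO libraries lay below both WT libraries, while in run 1 KO1 lay between WT2 and WT1. The log2 fold change was -0.34 ± 0.13 (95% interval -0.61 to -0.07). It passed the threshold without WT2 (-0.41), without both WT2 and WT5 (-0.44) and with limma-voom (-0.35). Macrophages are rich in ferroportin, and 13 macrophage markers summed to 66.7 to 88.5 CPM in KO and 69.0 to 84.8 CPM in WT libraries, with 1 of them called. Slc40a1 lies on chromosome 1 (45908068 to 45926523, - strand).

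Cp had 14.4, 6.82, 5.32 and 7.92 CPM in KO1 to KO4 and 12.0, 15.2, 10.4, 6.17 and 6.42 CPM in WT1 to WT5. The groups overlapped in both runs, and the libraries of run 1 were the higher ones apart from KO2. The log2 fold change was -0.10 ± 0.25 (95% interval -0.62 to 0.43), and its sign turned without KO2 (0.13). Cp lies on chromosome 3 (19957054 to 20009145, + strand) and overlaps Hps3 on the opposite strand.

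Of the genes for both iron regulatory proteins, Aco1 passed the threshold and Ireb2 did not, and the difference between them was not tested. Aco1 encodes IRP1, which acts as the cytosolic aconitase when it holds an iron-sulfur cluster. Its RNA had 43.6, 39.0, 36.7 and 29.1 CPM in KO1 to KO4 and 52.5, 55.1, 56.9, 45.5 and 44.4 CPM in WT1 to WT5. Every KO library lay below every WT library, with KO1 and WT5 the nearest. Aco1 fell in KO islets by 0.43 ± 0.10 on the log2 scale (95% interval -0.65 to -0.22), with -0.41 in run 1 and -0.45 in run 3. The call was lost only without the run term, at -0.46. Aco1 lies on chromosome 4 (40143081 to 40198338, + strand).

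Ireb2 encodes IRP2, which has no aconitase activity and is degraded when iron is plentiful. It had 90.2, 107, 146 and 135 CPM in KO1 to KO4, against 117, 97.2, 123, 161 and 138 CPM in WT1 to WT5. The groups overlapped in both runs, in run 3 through KO3 above WT5. Fitted with run, the log2 fold change was -0.14 ± 0.09 (95% interval -0.34 to 0.06) and missed the threshold. Ireb2 lies on chromosome 9 (54863789 to 54912530, + strand).

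Over the 10 genes, all of which passed the filter on low counts, 3 fell (Hfe, Ftl1 and Aco1) and 0 rose at a Benjamini-Hochberg adjusted p under 0.05 over 12501 genes in edgeR's quasi-likelihood test. Of all tested genes 18.5% were called in this comparison, 9.56% rising and 8.96% falling. The median log2 fold change was -0.28 over the 10 and 0.02 over all tested genes, and 9 of the 10 lay below 0, as 48% of all tested genes did. Hfe and Aco1 were the 2 members whose KO libraries all lay below all WT libraries, a separation that 11.1% of tested genes had in either direction (22.9% when asked for within each run). Because this comparison was in view when the members were chosen, nothing is read from these shares. Without the run term 1 member and 672 of all genes were called.

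The genotype by run interaction was tested to ask whether the KO against WT difference changed between the runs. It called 0 members and 0% of all tested genes in edgeR's test. Of all genes 744 had an unadjusted p under 0.05, none of them members, and DESeq2 called 1 gene and limma-voom 0. The members' interaction estimates ran from -0.19 to 0.41 on the log2 scale (run 3 minus run 1), the highest being that of Ftl1, and their lowest adjusted p was 0.9. The SEs of these estimates ran from 0.19 (Ireb2) to 0.63 (Trf), so differences between runs of that size could have gone uncalled. With each library left out, at most 6 genes were called (without WT3), none of them members.

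The WT group holds both Ogt f/+ and Ogt f/f islets, and the contrast of these genotypes gave 0 members and 0% of all genes called in edgeR's test. Of all genes 398 had an unadjusted p under 0.05, with 0 members among them, and DESeq2 and limma-voom each called 0 genes. Hfe had 88.4 and 66.4 CPM in the Ogt f/+ libraries WT1 and WT3, against 113, 66.6 and 50.3 CPM in the Ogt f/f libraries WT2, WT4 and WT5. Its log2 difference, f/+ over f/f with run as a term, was -0.39 ± 0.20 (unadjusted p = 0.0676 and adjusted p = 1 in edgeR's test). WT2 is the one Ogt f/f control of run 1, and with each library left out the Hfe difference ran from -0.61 to -0.10 with no call. Without WT1, 5 genes of all were called, none of them members. The remaining members had estimates of -0.22 to 0.28. Against the Ogt f/f controls alone, the KO islets had 3 members and 1538 of all genes called. KO against WT was in view when the members were chosen, so nothing is read from that count.

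The sequencing run was the contrast with the most members called. Run 3 against run 1, with genotype as a term, called 7 of the 10 members in edgeR's test, 3 higher and 4 lower in run 3, while 31.4% of all tested genes were called (15.1% higher and 16.3% lower). Slc40a1 was higher in run 3 by 0.72 ± 0.12 on the log2 scale (adjusted p = 0.00039), Ireb2 by 0.46 ± 0.09 (adjusted p = 0.00127) and Tfrc by 0.35 ± 0.12 (adjusted p = 0.0414). Fth1 was lower in run 3 (log2 difference -0.64 ± 0.11, adjusted p = 0.000315), as were Hfe (-0.56 ± 0.14, adjusted p = 0.00678), Cp (-0.84 ± 0.25, adjusted p = 0.018) and Aco1 (-0.31 ± 0.10, adjusted p = 0.03). The acinar marker sums given above were higher in every run 1 library than in any run 3 library, and the number of genes detected was higher in run 3: 20935 to 21067 genes in KO and 20069 to 20425 in WT libraries of run 3, against 15049 to 15136 in KO and 14485 to 14993 in WT libraries of run 1. Their part in these differences was not tested.

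Of these run differences, the 4 of Slc40a1, Ireb2, Fth1 and Hfe kept their call when each library was left out in turn. The count of called members was 4 without WT4 or without WT5. Tfrc lost its call without KO2 (0.30), KO4 (0.31), WT1 (0.28), WT2 (0.29), WT4 (0.32) or WT5 (0.36). Aco1 lost it without KO1 (-0.29), KO4 (-0.25), WT3 (-0.29), WT4 (-0.30) or WT5 (-0.29), and Cp without KO1 (-0.68), KO3 (-0.77), WT4 (-0.77) or WT5 (-0.80). Ftl1, at -0.29 with all libraries, was called without WT3 (-0.41).

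**Figure D3:**
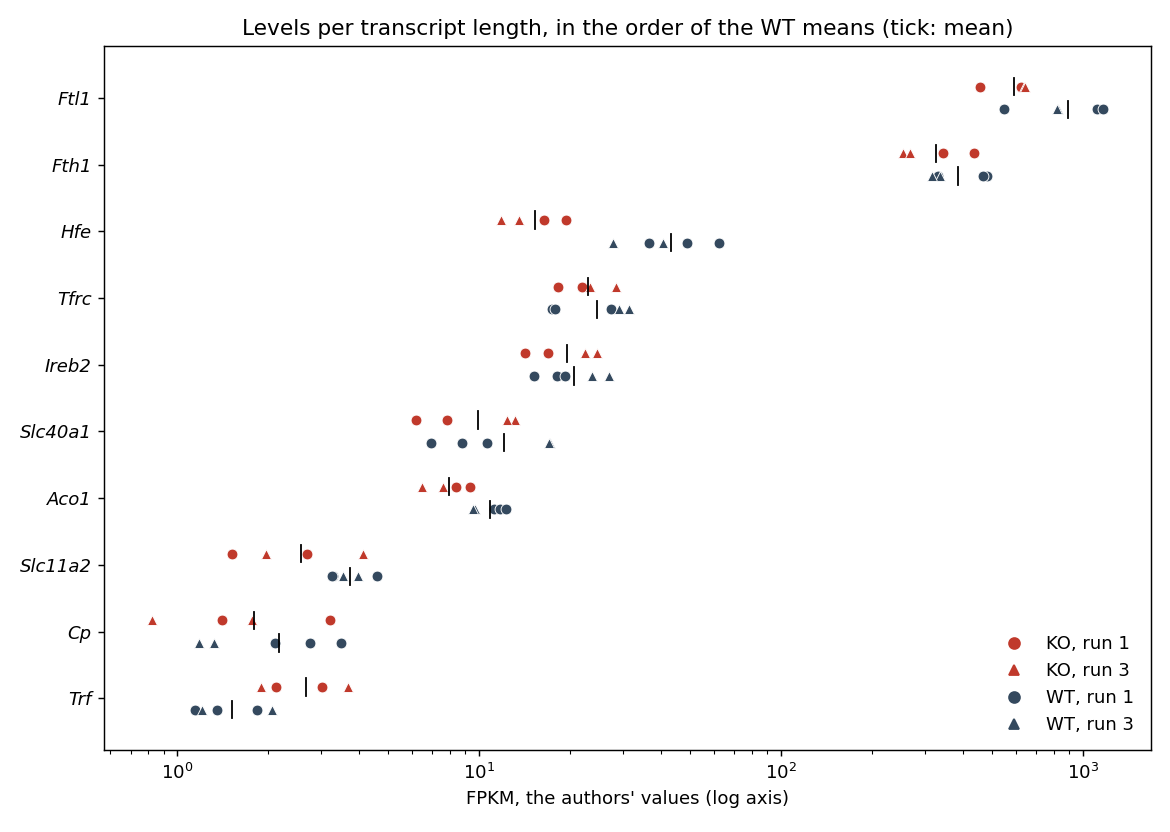
FPKM of the iron genes in every library on a log axis, ordered by the WT mean, KO above WT, with ticks at the group means. Both ferritin chains stand far above the other members, and Hfe is at 15.3 FPKM in KO and 43.2 FPKM in WT islets.

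Levels can be compared between genes only per transcript length, for which the deposited FPKM values were used. In KO islets the order was Ftl1 at 591 ± 89.2, Fth1 at 326 ± 84.2, Tfrc at 23.0 ± 4.21, Ireb2 at 19.5 ± 4.82, Hfe at 15.3 ± 3.29, Slc40a1 at 9.88 ± 3.39 and Aco1 at 7.94 ± 1.20 FPKM (SD, n = 4). Trf at 2.67 ± 0.82, Slc11a2 at 2.57 ± 1.14 and Cp at 1.80 ± 1.01 FPKM closed it. In WT islets Ftl1 was at 893 ± 250 and Fth1 at 386 ± 80.0 FPKM, followed by Hfe at 43.2 ± 13.1, Tfrc at 24.6 ± 6.50, Ireb2 at 20.7 ± 4.68, Slc40a1 at 12.1 ± 4.75 and Aco1 at 10.9 ± 1.20 FPKM (SD, n = 5). Slc11a2 at 3.72 ± 0.56, Cp at 2.17 ± 0.97 and Trf at 1.52 ± 0.40 FPKM were the lowest. In both groups the libraries of Ftl1 and Fth1, of Fth1 and the gene after it, and of Aco1 and the gene after it did not overlap, while all other neighbours in the order did.

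Ratios within a library show how the members stood against each other, free of the scaling of the library. Tfrc over Hfe, both in FPKM, was 1.33, 0.947, 1.97 and 2.09 in KO1 to KO4, against 0.358, 0.286, 0.746, 0.771 and 1.04 in WT1 to WT5. KO2 and WT5 overlapped, and within each run the KO libraries lay above the WT libraries. Ireb2 over Aco1 was 1.52, 2.01, 3.24 and 3.46 in the KO libraries and 1.62, 1.29, 1.58, 2.78 and 2.48 in the WT libraries, higher in run 3 in both groups. Light over heavy ferritin chain was 1.43, 1.33, 2.52 and 2.40 in the KO libraries, against 2.32, 2.50, 1.66, 2.44 and 2.60 in the WT libraries. In run 1 the KO libraries lay below all WT libraries for the ferritin ratio, and in run 3 the groups overlapped. The sum of both ferritin chains averaged 916 ± 107 FPKM in KO and 1279 ± 322 FPKM in WT islets (SD, n = 4 and 5).

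**Figure D4:**
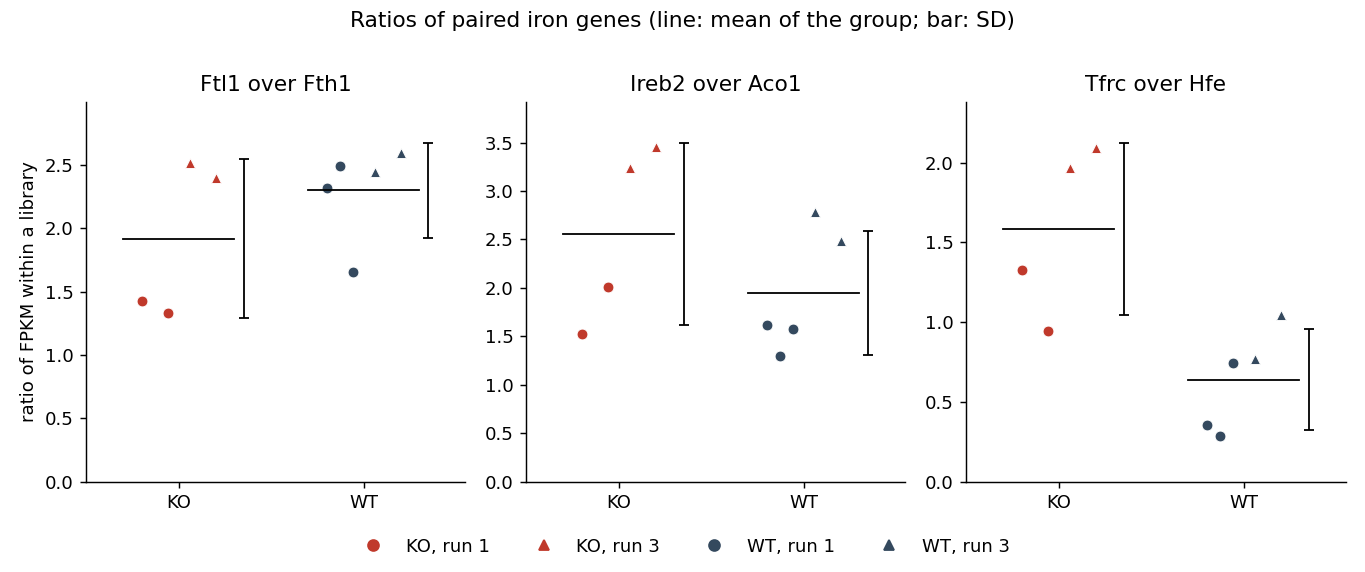
Ratios of FPKM within each library for Ftl1 over Fth1, Ireb2 over Aco1 and Tfrc over Hfe, KO left of WT, with runs marked, lines at group means and bars of 1 SD. The ratio of Tfrc to Hfe is 0.947 to 2.09 in KO and 0.286 to 1.04 in WT libraries.

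The genes whose pattern over the 9 libraries was most like that of Hfe, by Pearson's r of log2 CPM after subtraction of run means, were Trim44 (r = 0.989), Nxt2, Srm, Canx and Lman1 (r = 0.987 for Srm, Canx and Lman1). Canx, the ER chaperone calnexin, averaged 1128 ± 85.6 CPM in KO and 1508 ± 198 CPM in WT islets, a log2 fold change of -0.39 ± 0.08. Lman1, a cargo receptor between ER and Golgi, had a log2 fold change of -0.48 ± 0.08, and Srm, the spermidine synthase, of -0.49 ± 0.13. Among the members r with Hfe was 0.836 for Aco1 and 0.768 for Ftl1, near 0 for Tfrc (0.043) and -0.685 for Trf. These values describe 9 libraries that share the genotype difference, so any gene that differed with genotype takes part in them.

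The other genes of iron and heme handling give the setting in which the 10 members moved. Of 99 genes listed by role, 97 were in the table, 81 passed the filter, and 17 of these were called in KO against WT islets, 9 rising and 8 falling. That is 21% of those tested, near the 18.5% of all genes, and the median log2 fold change was -0.05. The count was 9 without KO1 or without WT1, 11 without KO2, KO3 or WT2, and 4 without the run term. Named below are called genes with the lowest p in each group, up to 4, with adjusted p-values over all genes from edgeR's test.

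Of 13 tested genes for other routes of iron and heme uptake, 1 rose and 3 fell. Steap2, a reductase of iron and copper at endosomes, had 54.9, 73.0, 60.5 and 51.1 CPM in KO1 to KO4, against 106, 108, 77.6, 67.3 and 72.3 CPM in WT1 to WT5 (log2 fold change -0.47 ± 0.12, adjusted p = 0.0134). Within each run its KO libraries lay below its WT libraries. Its relative Steap1 averaged 4.68 ± 1.67 CPM in KO and 11.2 ± 4.60 CPM in WT islets (-1.12 ± 0.32, adjusted p = 0.0253). The Steap1 log2 fold change was -1.81 in run 1 and -0.47 in run 3, where KO4 (7.04 CPM) lay above WT4 (6.63 CPM). Slc48a1, which carries heme out of endosomes and lysosomes, averaged 91.6 ± 18.5 CPM in KO and 70.6 ± 15.4 CPM in WT islets (0.41 ± 0.11, adjusted p = 0.0142). Lcn2, which binds iron-laden siderophores, had 12.8, 3.16, 1.66 and 3.08 CPM in KO1 to KO4, against 76.5, 26.6, 1.99, 12.2 and 6.08 CPM in WT1 to WT5 (-2.06 ± 0.66, adjusted p = 0.0403). Its WT libraries were scattered, with WT3 inside the KO range. Steap2 lost its call without KO1 (-0.36), and so did Slc48a1 (0.36). Steap1 lost it without KO1 (-1.02), KO2 (-0.87), KO3 (-1.07) or WT1 (-0.93), and Lcn2 without KO1 (-2.56), KO2 (-1.67), KO3 (-1.98), KO4 (-2.21), WT1 (-1.32), WT2 (-2.15) or WT4 (-1.91).

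Of 5 tested genes for other storage, chaperone and export steps, 1 fell and 0 rose. Pcbp2, an RNA-binding protein that also hands iron to ferritin, averaged 344 ± 95.5 CPM in KO and 472 ± 125 CPM in WT islets (log2 fold change -0.39 ± 0.07, adjusted p = 0.00129). Within each run all its KO libraries lay below all its WT libraries.

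Of 8 tested regulators and further carriers of iron-responsive elements, 3 rose and 1 fell. Carriers were listed by known role, and none of the 8 genes held the pattern searched for above, which misses elements that depart from it. Cdc14a, a phosphatase, averaged 12.4 ± 3.27 CPM in KO and 6.57 ± 2.90 CPM in WT islets (log2 fold change 0.85 ± 0.21, adjusted p = 0.00954). Epas1, which encodes HIF-2 alpha, had 63.0, 115, 59.0 and 45.3 CPM in KO1 to KO4 and 37.1, 47.3, 44.5, 49.5 and 46.0 CPM in WT1 to WT5 (0.63 ± 0.19, adjusted p = 0.0304). KO2 stood far above the rest and KO4 among the WT libraries. The Epas1 log2 fold change was 1.06 ± 0.21 in run 1 and 0.12 ± 0.22 in run 3 (interaction adjusted p = 0.795 in edgeR's test). The Epas1 call was lost without KO2 (0.30), KO3 (0.66), WT1 (0.53), WT2 (0.61) or WT3 (0.58). KO2 also had the highest sum of endothelial markers, 567 CPM, against 142 to 293 CPM in the other KO and 172 to 451 CPM in the WT libraries, and the part of these cells in the Epas1 value was not tested. Cul1, a scaffold of the ubiquitin ligase that marks IRP2 for degradation, averaged 97.1 ± 4.65 CPM in KO and 122 ± 7.63 CPM in WT islets (-0.33 ± 0.08, adjusted p = 0.00808).

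Of 13 tested genes of hepcidin and BMP signalling, 1 rose and 0 fell. Tmprss6, the protease that restrains hepcidin in the liver by cutting hemojuvelin, had 5.54, 8.52, 5.65 and 3.96 CPM in KO1 to KO4, against 1.22, 1.30, 1.24, 2.71 and 2.03 CPM in WT1 to WT5. It was low in all libraries, yet every KO library lay above every WT library (log2 fold change 1.70 ± 0.36, adjusted p = 0.00422). B2m, chosen here after its values were seen because it encodes the partner chain of Hfe, averaged 126 ± 45.1 CPM in KO and 143 ± 38.1 CPM in WT islets (-0.13 ± 0.11, adjusted p = 0.446).

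Of 29 tested genes of mitochondrial iron and iron-sulfur cluster assembly, 1 rose and 2 fell. Iscu, the scaffold on which the clusters are built, had 71.6, 67.2, 91.0 and 89.2 CPM in KO1 to KO4, against 36.4, 34.0, 26.9, 44.7 and 33.8 CPM in WT1 to WT5. The groups stood well apart in both runs (log2 fold change 1.15 ± 0.11, adjusted p = 7.03e-06). Hspa9, the mitochondrial HSP70 that helps release the cluster from the scaffold and also folds imported proteins, had 804, 732, 520 and 618 CPM in the KO libraries and 1527, 1557, 1174, 908 and 838 CPM in the WT libraries (-0.76 ± 0.10, adjusted p = 0.000133). All KO libraries again lay on one side of all WT libraries. Mms19, which delivers clusters to proteins of the cytosol and nucleus, averaged 18.4 ± 2.37 CPM in KO and 25.3 ± 2.53 CPM in WT islets (-0.44 ± 0.14, adjusted p = 0.0318). Its call was lost without KO1 (-0.49), KO2 (-0.42), KO3 (-0.37), WT1 (-0.43), WT2 (-0.42) or WT5 (-0.41). The remaining 26 genes of the group did not pass the threshold.

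Of 13 tested genes of heme synthesis and breakdown, 3 rose and 1 fell. Alad, an early enzyme of heme synthesis, averaged 19.0 ± 2.36 CPM in KO and 13.8 ± 2.62 CPM in WT islets (log2 fold change 0.51 ± 0.16, adjusted p = 0.0333). Urod, a later enzyme, averaged 32.1 ± 6.94 CPM in KO and 24.2 ± 2.37 CPM in WT islets (0.42 ± 0.12, adjusted p = 0.0264), and the heme-binding protein gene Pgrmc1 averaged 247 ± 38.6 CPM in KO and 192 ± 25.7 CPM in WT islets (0.36 ± 0.11, adjusted p = 0.0375).

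None of the 3 rises of Alad, Urod and Pgrmc1 kept its call when each library was left out in turn. Alad lost its call without KO1 (0.47), KO3 (0.47), KO4 (0.47), WT1 (0.52), WT2 (0.50), WT4 (0.50) or WT5 (0.43). Urod lost it without KO2 (0.32), WT1 (0.39), WT2 (0.41) or WT5 (0.38), and Pgrmc1 without KO1 (0.24), KO4 (0.30), WT1 (0.37), WT3 (0.28), WT4 (0.38) or WT5 (0.34).

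**Figure D5:**
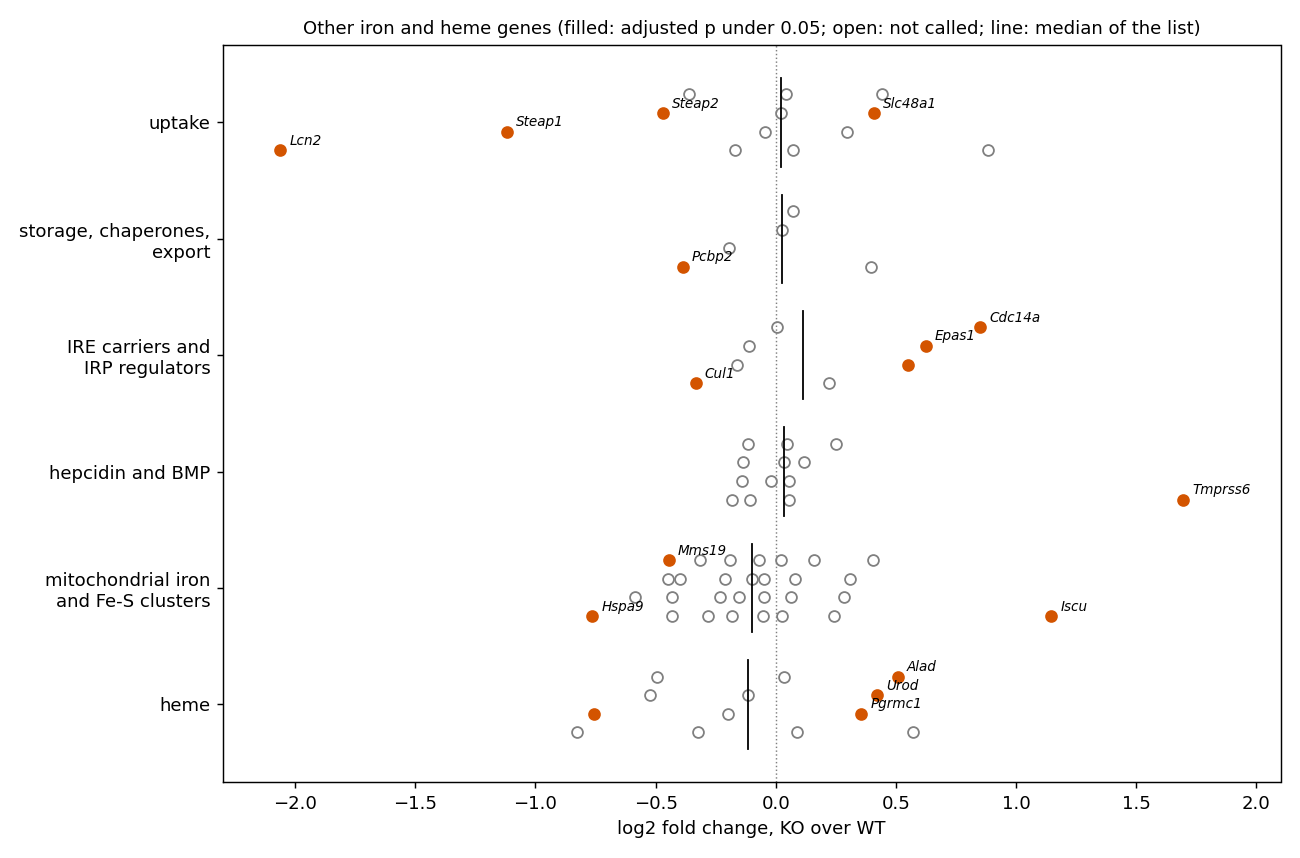
Log2 fold change of KO over WT for the other iron and heme genes that passed the filter, by role, with called genes filled, those described in the text named, and lines at the medians. Of 81 genes 9 rose and 8 fell, Tmprss6 (1.70) and Lcn2 (-2.06) being the farthest from 0.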

How the data were processed

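Female islet RNA was sequenced from stranded total RNA libraries, per the labels' protocols. Raw read counts and FPKM values, each by gene and library, are tables the authors deposited. FastQC, Bowtie2 2.2.4.0, Cuffdiff 2.2.1, edgeR and the build mm10 are named without roles, per the submitters' processing notes. The counter, its use of strand and its treatment of reads with several matches are not given in the sources used here, and neither is the scaling between libraries of the deposited FPKM. Of 24420 counted genes, 27 symbols turned into dates (0.133% to 0.186% of counts) were left out. Counts as deposited were tested with edgeR 4.0.16 (R 4.3.3): TMM, the default filter by genotype group, a model of run and genotype, and Benjamini-Hochberg adjustment over 12501 genes. A gene was called at an adjusted p under 0.05. SEs were obtained from each log2 fold change and the F statistic, and log2 CPM for correlations used a prior count of 2. The same model with an interaction term gave the within-run values, and a model of 3 genotype groups and run gave the control contrast. FPKM served for levels between genes and, with limma 3.58.1 on log2(FPKM + 0.1) and log2(FPKM + 1), as alternatives. DESeq2 1.42.0, limma-voom, other filters, RLE scaling, omission of Rn45s, of the run term or of Ogt f/+ controls, an acinar term and leaving out libraries were the others. Replicates of a group differed beyond counting noise, in pairs within and across runs. Chi-square per degree of freedom was 3.73 for KO3 and KO4 of run 3, and 64.2 for WT2 and WT4 of different runs. Each library was counted as 1 sample, though this spread does not show that libraries came from separate mice. Totals of 3796043 to 6073537 counts limit precision for genes at a few CPM. Iron-responsive elements were searched in GENCODE M21 transcripts. The members and lists were chosen with earlier results of these data known. Genes named were all members, Ogt, up to 4 called genes of lowest p per wider list (up to 2 of lowest p where none was called), and the 5 genes most correlated with Hfe, passing over predicted genes and genes under an average log2 CPM of 2. Some genes of the wider lists are counted but not reported here by name.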

Additional observations from a re-analysis of the deposited data

Results flagged for a closer look

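Among 50 groups of 4 or 5 libraries (25 named genes in KO and in WT), 3 held a library far from the rest of its group, where chance gives about 1 in 20. None was a member. Lcn2 was at 12.8 CPM in KO1, against 1.66 to 3.16 CPM in the other KO libraries. Urod was at 20.1 CPM in WT5, against 24.4 to 26.1 CPM in the other WT libraries. Pgrmc1 was at 148 CPM in WT3, against 194 to 212 CPM in the other WT libraries.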

How the results depend on the processing

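No paired analysis was possible because the labels give no replicate numbers that tie a KO library to a WT library. Of 23 alternatives, Hfe kept its call in all (log2 fold change -1.53 to -1.30), Aco1 in 22 and Ftl1 in 9 (-0.70 to -0.38). The members were chosen with this comparison known, so these tallies describe the settings and support nothing. The count of called members, 3 with all libraries, was 1 without the run term and 2 to 4 with each library left out. The count of 17 wider genes was 4 without the run term, 10 with only Ogt f/f controls, 11 with limma on log2(FPKM + 0.1) or log2(FPKM + 1), 7 with no FPKM filter and 9 to 16 with each library left out. It was 10 without both WT2 and WT5, the libraries highest in Rn45s, and 10 without both KO2 and WT2, the acinar extremes of run 1. Both of these omissions were chosen after seeing the data. Over all genes 2315 were called. The count was 672 without the run term, 1538 with only Ogt f/f controls, 1274 with no FPKM filter, 1488 without WT2 and WT5, 1519 without KO2 and WT2, and 1595 to 2334 with each library left out. Called members between runs, 7 with all libraries, ranged from 4 to 7 with each library left out. The Cp log2 fold change turned to 0.12 with the acinar term, 0.19 without KO2 and WT2, and 0.13 without KO2 (-0.30 to 0.13 with each library left out). The cause was not tested. Without a filter on low counts, 90 genes were called for the interaction and 39 between control genotypes, none of them members. Iscu and Hspa9 kept their calls in all 23 alternatives. Pcbp2 and Cul1 lost theirs only without the run term, Tmprss6 in 1 of 21 and Cdc14a in 3 of 23.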
